A study of Mus musculus with 15 samples.

Results

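The comparison described here set 3 arrays of mouse embryonic stem cells that expressed a Map3k3 transgene against 3 arrays of the same kind of cell that expressed EGFP, a green fluorescent protein that served as the control transgene. These 6 arrays, chosen by their sample labels, are part of a series of 15. All 6 came from Nat1-null cells, which are labelled null for the translation factor gene that the labels call Nat1 (symbol Eif4g2), and both transgenes were under a tet system switched on by doxycycline (Dox). Both groups were cultured with Dox, so that the drug and the null genotype were equal on both sides and the transgene differed. The other groups were wild-type cells, Nat1-null cells without a transgene, and tet-Map3k3 Nat1-null cells without Dox, with 3 arrays each. The cells grew in a standard stem cell medium on gelatin without feeder cells named in the labels. The labels give neither the dose and duration of Dox nor the number of clones behind a line. Nor do they state whether the samples within a group came from separate cultures. The p-values therefore cover the spread within groups alone, pooled over all 15 arrays, and that spread may be technical. A difference between the lines that was there before Dox was added cannot be told apart from an effect of Map3k3 in this comparison alone, which is why the uninduced Map3k3 cells are used below as another control.

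Map3k3 encodes MEKK3, a serine/threonine kinase at the top of a MAP kinase cascade. MEKK3 phosphorylates MAP kinase kinases that in turn activate ERK5, p38, JNK and ERK1/2, and it also feeds into NF-kB. These kinases act on transcription factors such as AP-1, a dimer of Fos and Jun family proteins, MEF2 and SRF. In mouse embryonic stem cells, ERK activity favours exit from the naive pluripotent state, and self-renewal is kept by LIF, STAT3 and factors such as Pou5f1, Sox2, Nanog and Esrrb.

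RNA levels were measured with single-colour Agilent arrays. Levels are log2 signals relative to the array's 75th percentile, so that 0 is the signal that 25% of probes exceed. Between 42.7% and 53.9% of probes were well above background on an array, the lowest share being that of Map3k3 array 2. Arrays of a group correlated at 0.987 or more within the Map3k3 group and 0.988 or more within the EGFP group, and at 0.954 to 0.969 between the groups. A call needed both a difference of at least 1.5-fold and an adjusted p under 0.05 in a limma fit, and rose and fell are used only of called genes. Where a gene was well above background on none of the arrays of the lower group, its fold is a lower bound, introduced by the words at least. For a bound, each array of that group takes the lowest signal that was well above background on it, unless the gene's own value is higher. Where only some arrays of a group measured a gene, their number is given.

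Of 14443 genes tested, 2610 (18.1%) were called, 1791 (12.4%) higher and 819 (5.67%) lower with Map3k3 than with EGFP. The rises were larger than the falls. At least 4-fold rises were found in 528 genes against 37 such falls, and 121 genes rose at least 16-fold while none fell that far. The fold was a bound for 380 of the called genes, and 78 called genes have no fold because they were below background in both groups or their bound was under 1. Without the fold minimum, 2594 genes were higher and 3393 lower at an adjusted p under 0.05, so falls were more frequent among small differences. The median of all 14443 differences was -0.09 on the log2 scale. A set of 182 genes was well above background on all 3 Map3k3 arrays and on no EGFP array, and 178 of these were called higher. The opposite pattern was found in 27 genes, of which 25 were called lower.

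**Figure D1:**
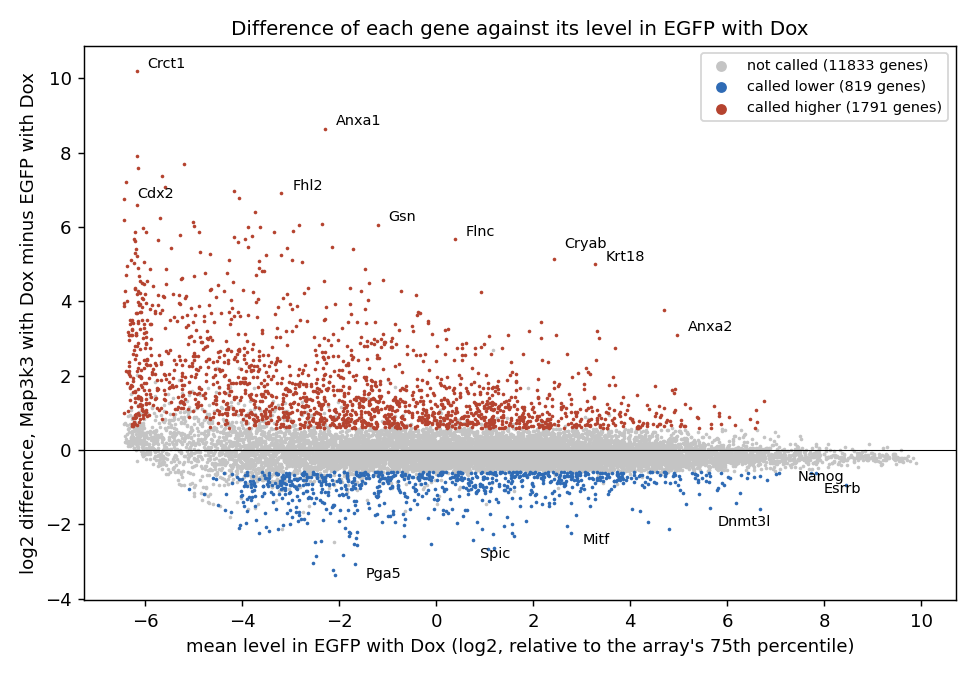
Each point is 1 of 14443 genes, with its mean level in the EGFP cells on the x axis and the log2 difference, Map3k3 with Dox minus EGFP with Dox, on the y axis. The 1791 genes called higher (red) reach far above the axis among genes of low level, and the 819 called lower (blue) stay close below it. Differences of genes at the left edge rest on EGFP signals near background and are larger than the bounds given in the text.

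The Map3k3 probe itself gave levels of -0.48, -0.36 and -0.67 on the Map3k3 arrays and -0.86, -0.67 and -0.78 on the EGFP arrays. Map3k3 array 3 lay just below EGFP array 2, so the groups overlapped, and the gene was not called (log2 difference 0.27, SE 0.12, adjusted p = 0.0873). Whether this probe lies in the part of the transcript that the transgene carries is unknown here, and the probe checks neither label. Eif4g2, for which the cells are labelled null, had levels of 1.64, 1.54 and 1.64 on the Map3k3 arrays and 1.47, 1.36 and 1.85 on the EGFP arrays, which overlap (log2 difference 0.05, SE 0.14, adjusted p = 0.815), and its mean in wild-type cells was 4.31. Its signal was thus below wild type and yet well above background on all 6 arrays, and where its probe lies relative to the deletion is unknown here. The stem cell genes Pou5f1, Nanog, Esrrb and Zfp42 were well above background on all 6 arrays.

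The EGFP cells with Dox and the Map3k3 cells without Dox share no array, and their difference shows how far the choice of control matters. No gene was called between them by limma (0%), with or without the fold minimum, and 464 of 14443 genes had an unadjusted p under 0.05. The 95% interval of the difference between these controls lay within 1.5-fold for 10711 genes (74.2%) and within 2-fold for 12918 genes (89.4%). Among the 2610 genes called against EGFP the intervals lay within 1.5-fold for 1411 (54.1%) and within 2-fold for 2164 (82.9%). The median size of the control difference was 0.07 on the log2 scale over all genes and 0.11 over the called genes.

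The 5 genes with the largest positive difference between the controls, EGFP with Dox minus Map3k3 without Dox, were Rarres2, Jakmip2, Nudt7, Faim2 and Gjb5. They were ordered by the measured difference or, where a gene was at background on all arrays of the lower group, by its bound. Genes without a bound above 1-fold were left out. Jakmip2 was -6.08, 2.17 and -5.63 on the EGFP arrays, Rarres2 was -3.73, 1.13 and -3.70, and Nudt7 was -4.08, -0.19 and -4.14. In each of these 3 genes EGFP array 2 stood alone above the others. Gjb5, a connexin, was -1.99, -0.77 and -2.63 on the EGFP arrays against a mean of -3.03 without Dox, a control difference of 1.23 with an unadjusted p of 0.00578 and an adjusted p of 1. The 5 genes with the largest negative difference were Slc38a4, Shpk, Dusp19, Kcnc4 and Mepe. Slc38a4, an amino acid transporter, was 1.42, -6.34 and 1.96 on the EGFP arrays, with array 2 alone near background. Array 2 was also the lowest without Dox (1.45, -2.18 and 2.00), in Map3k3 with Dox (1.72, -1.31 and 2.31) and in the Nat1-null cells (1.21, -3.17 and 2.32). The control difference of Slc38a4, -1.41, rests on EGFP array 2. The other 4 genes differed by -1.23, -1.21, -1.19 and -1.06, none of them called.

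**Figure D2:**
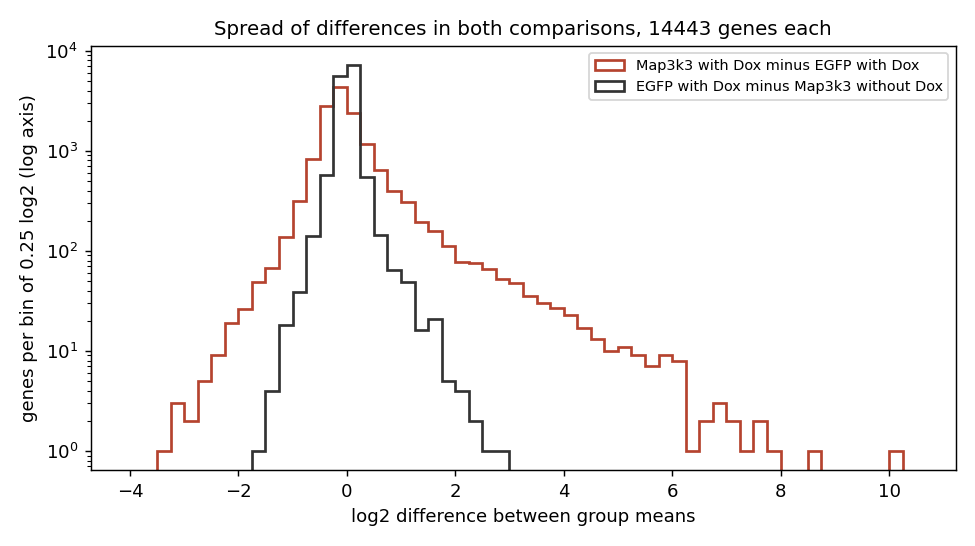
Number of genes (log axis) in bins of log2 difference for Map3k3 with Dox minus EGFP with Dox (red) and for EGFP with Dox minus Map3k3 without Dox (dark grey), over the same 14443 genes. The difference between the controls stays within about 3 log2 units of 0, while the Map3k3 difference has a long tail on the higher side.

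The genes that rose most with Map3k3 were Anxa1, Crct1, Slc25a24, Phldb2 and Fhl2. Anxa1, a calcium- and phospholipid-binding protein of the annexin family, had levels of 6.15, 6.76 and 6.13 on the Map3k3 arrays and -1.92, -3.46 and -1.52 on the EGFP arrays. Its lowest Map3k3 array was far above its highest EGFP array, and it was 399.6-fold higher (log2 difference 8.64, SE 0.55, adjusted p = 2.43e-07). Crct1, a gene of the epidermal differentiation complex, had levels of 3.92, 4.35 and 3.79 on the Map3k3 arrays and -5.90, -6.14 and -6.48 on the EGFP arrays. The EGFP arrays were all at background for Crct1, so the difference is a bound of at least 382-fold (adjusted p = 6.17e-11).

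Fhl2, a LIM-domain protein that binds integrins and is a known SRF target, had levels of 3.79, 3.70 and 3.67 on the Map3k3 arrays and -3.07, -3.84 and -2.65 on the EGFP arrays. All Map3k3 arrays lay within a narrow range far above the EGFP arrays, a 120.3-fold difference (log2 difference 6.91, SE 0.40, adjusted p = 1.06e-07). The mitochondrial carrier Slc25a24 was at least 132-fold higher, and Phldb2, a membrane-anchored protein of the cell cortex, 124-fold higher, with Phldb2 measured on 1 EGFP array. Thbs1, the matrix protein thrombospondin 1, had levels of 1.28, 2.26 and 1.66 on the Map3k3 arrays and -5.92, -6.16 and -4.84 on the EGFP arrays, a rise of at least 76.5-fold. The EGFP arrays were all far below the Map3k3 arrays for Thbs1.

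Further genes among the 15 with the largest rise were Dmkn (109-fold, measured on 1 EGFP array), Itpripl2 (84.4-fold, measured on 1 EGFP array), Prss23 (at least 79.2-fold), Gsn (66.5-fold), Edn2 (at least 66.4-fold), Vgf (65.9-fold), Hand1 (65.2-fold, measured on 1 EGFP array) and Crybg1 (64.5-fold, measured on 2 EGFP arrays). Dmkn encodes dermokine, a secreted epidermal protein, Prss23 a serine protease, Gsn the actin-severing protein gelsolin, Edn2 the peptide endothelin 2 and Vgf a secreted neuropeptide precursor. Hand1 is a basic helix-loop-helix factor of trophoblast and heart. In all 15 genes the Map3k3 arrays lay above the EGFP arrays with no overlap. Among the 15, the difference between the controls was largest for Hand1, at 1.63, which rests on EGFP array 1 at -3.00 and has no bound above 1-fold, since all arrays without Dox were at background, and for Edn2, at 0.76, and it was 0.49 or less for the others. Most of the 15 were measured by a single probe, and Anxa1, Dmkn, Itpripl2 and Gsn by several.

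Sequences upstream of some strongly raised genes are shown because they hold matches to the sites of AP-1 and SRF, factors downstream of MAP kinases. Each is 250 bases before a RefSeq transcription start in GRCm38.p6, written 5′ to 3′ on the gene's strand, with the match in capitals. The AP-1 motif was TGANTCA, which reads the same way on both strands, and SRF's was the CArG box. For the serine protease gene Prss23 the match begins 146 bases before the start, and for Sprr1a, a cornified envelope gene, matches begin 146 and 116 bases before it. In Plet1, a trophoblast surface protein gene, the match begins 144 bases before the start, and in the cytokine gene Il11 it begins 98 bases before it. Fhl2 has a CArG box in each of 2 promoters, beginning 96 and 31 bases before their starts.
Prss23, chr7:89518205-89518454, minus strand: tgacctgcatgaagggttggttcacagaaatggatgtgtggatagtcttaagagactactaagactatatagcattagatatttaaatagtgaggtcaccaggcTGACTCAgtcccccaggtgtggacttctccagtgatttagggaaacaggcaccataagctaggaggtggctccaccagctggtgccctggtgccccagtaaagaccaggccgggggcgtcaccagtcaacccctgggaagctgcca
Sprr1a, chr3:92485882-92486131, minus strand: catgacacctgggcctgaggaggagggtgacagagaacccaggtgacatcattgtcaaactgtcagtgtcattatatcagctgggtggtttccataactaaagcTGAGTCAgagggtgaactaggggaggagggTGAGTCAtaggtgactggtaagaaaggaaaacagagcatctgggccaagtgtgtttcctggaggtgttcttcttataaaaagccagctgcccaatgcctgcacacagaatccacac
Plet1, chr9:50494275-50494524, plus strand: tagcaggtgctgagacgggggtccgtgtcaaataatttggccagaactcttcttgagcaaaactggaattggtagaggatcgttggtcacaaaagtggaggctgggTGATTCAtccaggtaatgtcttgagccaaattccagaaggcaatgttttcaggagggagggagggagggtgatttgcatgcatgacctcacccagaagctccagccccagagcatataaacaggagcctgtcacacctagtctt
Il11, chr7:4778142-4778391, minus strand: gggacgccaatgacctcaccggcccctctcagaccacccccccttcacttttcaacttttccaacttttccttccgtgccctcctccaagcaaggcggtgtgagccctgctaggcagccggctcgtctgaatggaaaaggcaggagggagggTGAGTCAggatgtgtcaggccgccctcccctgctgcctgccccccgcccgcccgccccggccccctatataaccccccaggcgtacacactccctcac
Fhl2 upstream promoter, chr1:43196762-43197011, minus strand: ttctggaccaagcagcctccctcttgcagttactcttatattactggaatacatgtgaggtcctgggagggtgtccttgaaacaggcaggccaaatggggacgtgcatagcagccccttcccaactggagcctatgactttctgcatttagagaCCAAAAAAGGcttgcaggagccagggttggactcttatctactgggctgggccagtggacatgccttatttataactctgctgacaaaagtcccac
Fhl2 downstream promoter, chr1:43163962-43164211, minus strand: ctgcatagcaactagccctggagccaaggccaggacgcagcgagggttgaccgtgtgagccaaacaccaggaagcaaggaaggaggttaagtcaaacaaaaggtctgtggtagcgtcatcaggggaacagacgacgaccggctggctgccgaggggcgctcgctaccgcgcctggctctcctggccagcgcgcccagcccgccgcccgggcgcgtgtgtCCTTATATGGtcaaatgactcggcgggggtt

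Over all 32851 promoters of the RefSeq table, 6.75% held the AP-1 motif and 1.47% a CArG box in the same 250 bases. These promoters were picked after the values were seen, and a match is a description of letters, not a bound site. The table held a promoter for 11476 of the 14443 genes tested and for 1366 of the 1791 genes called higher, under 80% of either, so a comparison of the gene sets is void. A promoter with the AP-1 motif was found for 5.59% of the genes tested and 8.42% of those called higher. For the CArG box these shares were 1.54% and 1.46%, for the NF-kB site 7.27% and 10.5%, and for the TEAD motif GGAATG 12.9% and 14.6%, and nothing is read from them.

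Among the kinases of the cascade itself, 3 of 23 measured genes rose and none fell, close to the share of all genes. The p38 family kinases Mapk13 (2.07-fold) and Mapk12 (1.61-fold, but not called without Map3k3 array 1, Map3k3 array 3, EGFP array 1 or EGFP array 2, at log2 0.61, 0.66, 0.76 and 0.49) and the transcription factor Mef2d (1.96-fold) rose. Not called were Map2k5 (log2 difference 0.14) and Mapk7 (-0.01), for the kinases MEK5 and ERK5, and Mapk3 (-0.20), which encodes ERK1. Map3k2, the closest relative of Map3k3, differed by 0.29.

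Of the AP-1 subunits 6 of 14 rose, none fell, and their median difference was 0.50. Fosl1, which encodes FRA1, had levels of 0.17, 0.67 and 0.15 on the Map3k3 arrays and -3.48, -3.96 and -2.53 on the EGFP arrays. All Map3k3 arrays were above all EGFP arrays, a rise of 12.6-fold, measured on 2 EGFP arrays (log2 difference 3.65, SE 0.37, adjusted p = 1.2e-05). Also raised were the stress-induced factor Atf3 (10.5-fold), Fosl2 (6.44-fold), Fosb (3.52-fold), Jun (3.17-fold) and the small Maf gene Mafk. Fos differed by -0.08, Junb by 0.40 and Jund by 0.56, none of them called. Mafk was at the foot of the called members with a 1.62-fold rise, not called without Map3k3 array 2 or EGFP array 2, at log2 0.59 and 0.58.

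The dual-specificity phosphatases, which remove phosphate from MAP kinases and are themselves induced by them, had 8 of 11 members higher, none lower and a median of 2.77. Dusp1, an early-induced nuclear phosphatase, had levels of 3.61, 4.01 and 3.48 on the Map3k3 arrays and 0.88, 0.91 and 0.98 on the EGFP arrays. The groups were far apart, a 6.83-fold rise (log2 difference 2.77, SE 0.14, adjusted p = 2.83e-08). The 5 largest rises were those of Dusp10 (at least 14.0-fold), Dusp14 (13.8-fold), Dusp9 (9.57-fold), Dusp4 (7.65-fold) and Dusp1. Dusp6, the ERK-selective cytoplasmic member, was not called, with levels of 4.22, 4.91 and 4.31 on the Map3k3 arrays and 4.49, 4.61 and 4.67 on the EGFP arrays that overlapped (log2 difference -0.11). Dusp7 and Dusp16 were not called either.

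Early response and feedback genes of the ERK pathway were mixed, with 5 of 16 higher, 1 lower and a median of 0.18. Ier3 (15.3-fold), Errfi1 (9.13-fold), a feedback inhibitor of the EGF receptor, Phlda1 (8.46-fold), Ier5 (at least 4.01-fold) and Myc (1.79-fold) rose. Egr1 fell, with levels of 0.80, 1.74 and 0.67 on the Map3k3 arrays and 1.67, 2.38 and 1.87 on the EGFP arrays. Map3k3 array 2 lay within the range of the EGFP arrays, although each Map3k3 array was below the EGFP array of its number. The fall was 1.87-fold (log2 difference -0.91, SE 0.29, adjusted p = 0.0251). Egr1 was not called without Map3k3 array 1, Map3k3 array 3 or EGFP array 2, at log2 -0.77, -0.71 and -0.70. The Sprouty genes Spry2 and Spry4 and the ETS gene Etv5, all ERK feedback or target genes, differed by -0.24, -0.39 and -0.51 without a call.

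Among EGF family ligands and receptors 4 of the 8 measured genes rose and none fell. Egfr had levels of 0.75, 1.42 and 0.58 on the Map3k3 arrays and -3.24, -2.80 and -2.98 on the EGFP arrays. Every Map3k3 array was above every EGFP array, a 15.2-fold rise (log2 difference 3.92, SE 0.20, adjusted p = 4.13e-08). The ligand genes Nrg1 (3.98-fold), Hbegf (3.87-fold) and Nrg2 (1.65-fold, but not called without Map3k3 array 2, EGFP array 1 or EGFP array 3, at log2 0.46, 0.58 and 0.66) rose, and the receptors Erbb2 and Erbb3 were not called. The other 5 listed genes, Areg, Ereg, Tgfa, Btc and Erbb4, did not pass the filter on low signals.

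NF-kB subunits and targets had 6 of 14 members higher, none lower and a median of 0.58. The largest rise was that of Tnfaip3, the A20 ubiquitin editor that limits NF-kB signalling, with levels of 0.55, 1.45 and 0.80 on the Map3k3 arrays and -2.26, -2.42 and -1.40 on the EGFP arrays. The groups did not overlap, a 7.78-fold rise. Tnfaip2 (at least 6.38-fold), Traf1 (4.23-fold), Nfkb2 (1.62-fold, but not called without Map3k3 array 2, at log2 0.57) and Rela (1.56-fold, but not called without Map3k3 array 2 or EGFP array 2, at log2 0.56 and 0.53) also rose. The inhibitor Nfkbia, a standard NF-kB target, differed by 0.29 without a call, and Icam1 by -0.35.

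Chemokines, interleukins and colony-stimulating factors were at or near background in the EGFP cells, and of 24 listed genes 10 were called higher, 5 were not called and 9 did not pass the filter on low signals. Of the 10, 9 had passed it through a group outside the comparison and 1 through the Map3k3 cells with Dox alone. Il11, a cytokine of the interleukin-6 family, had levels of 1.34, 2.66 and 1.23 on the Map3k3 arrays and -2.53, -4.47 and -4.82 on the EGFP arrays. EGFP array 1 was well above the other EGFP arrays and still below every Map3k3 array, and the rise was 51.4-fold, measured on 1 EGFP array (log2 difference 5.68, SE 0.51, adjusted p = 5.03e-06). Csf1 (at least 31.6-fold), Ccl2 (at least 18.3-fold), Cxcl10 (at least 12.2-fold) and Il34 (10.9-fold) followed. Lif was called but was below background in both groups and has no fold. Il6, Tnf, Il1a and Il1b were among those that did not pass the filter. Of 12 interferon response genes 4 were higher, Gbp2 (at least 15.9-fold), Gbp3 (at least 5.93-fold), Isg15 (1.66-fold) and Oasl2 (at least 1.15-fold, measured on 2 Map3k3 arrays, but not called without Map3k3 array 1, Map3k3 array 3 or EGFP array 2, at log2 1.47, 1.35 and 1.56), while Irf1, Irf9 and Stat2 were not called. The rise of Isg15 rests on its brighter probe, since another differed by -0.10 without a call. With the replicate number as a block 1 interferon response gene was called lower.

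Actin cytoskeleton genes and targets of SRF, the factor that reads the state of actin, had 19 of 29 members higher and none lower, with a median of 0.84. Behind Fhl2, the filamin gene Flnc had levels of 6.00, 6.12 and 6.03 on the Map3k3 arrays and 0.26, 0.14 and 0.75 on the EGFP arrays. Flnc was already above the 75th percentile in the EGFP cells and rose 50.8-fold (log2 difference 5.67, SE 0.21, adjusted p = 2.4e-09). Cald1 (8.22-fold), Acta1 (at least 5.97-fold) and Zyx (5.94-fold), which encode caldesmon, skeletal actin and zyxin, came next. The cytoplasmic actins Actb and Actg1 differed by 0.16 and -0.08, with other Actg1 probes at up to 0.41, and Vcl, for vinculin, by 0.58, just short of the fold minimum.

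Targets of YAP and TEAD, the effectors of the Hippo pathway, had 16 of 20 members higher, none lower and a median of 1.52 (1.33 with bounded genes at their bound). Ccn1, formerly Cyr61, had levels of 3.25, 3.88 and 3.28 on the Map3k3 arrays and -1.03, -1.65 and -0.61 on the EGFP arrays. The groups were far apart, a 23.6-fold rise (log2 difference 4.56, SE 0.30, adjusted p = 3.45e-07). Besides Thbs1, Axl (10.8-fold), Crim1 (at least 9.33-fold) and Ccn2 (7.26-fold), formerly Ctgf, rose. Many members of this list, Ccn1, Ccn2 and Thbs1 among them, are also known targets of SRF and AP-1. Ajuba, Nuak2, Wwc1 and Dlc1 were not called.

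Integrins and focal adhesion genes had the highest share of members called, 16 of 18 higher and none lower, with a median of 1.03. Itga3 (7.96-fold), the hyaluronan receptor Cd44 (7.43-fold), Parva (7.22-fold), Itgav (5.51-fold) and Itgb4 (3.33-fold) had the largest rises. Itga3, an integrin chain that binds laminin, had levels of 3.19, 3.39 and 2.99 on the Map3k3 arrays and 0.11, 0.15 and 0.34 on the EGFP arrays, with no overlap. Only Itga7 and Itgb7 of the measured members were not called, and Cav2 was called without a fold because it was below background in both groups.

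Matrix and basement membrane genes had 9 of 20 members higher and 1 lower. The laminin chain Lamb3 (23.0-fold, measured on 1 EGFP array), the anchoring collagen Col7a1 (8.68-fold), Col6a1 (at least 4.59-fold) and Col1a1 (2.96-fold) were among those that rose most, while the probes of Lama3, another laminin chain, disagreed. The brighter one differed by 0.18 without a call, and another was called higher, at 3.39 (adjusted p = 0.0106). Nid2 (1.54-fold, but not called without Map3k3 array 3 or EGFP array 3, at log2 -0.58 and -0.58) fell and Fn1, for fibronectin, differed by -0.33. Of 26 proteases and protease inhibitors 16 were called higher and 1 lower. After Prss23, Timp2 (18.1-fold), Adamts1 (at least 13.6-fold) and Adam8 (9.39-fold) were among the largest rises. Plau, the urokinase, was at least 7.93-fold higher and its receptor Plaur 4.27-fold higher, with Plaur levels of 5.13, 5.61 and 4.97 on the Map3k3 arrays and 3.26, 2.55 and 3.61 on the EGFP arrays. Mmp2 (1.94-fold, measured on 1 Map3k3 array) fell.

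**Figure D3:**
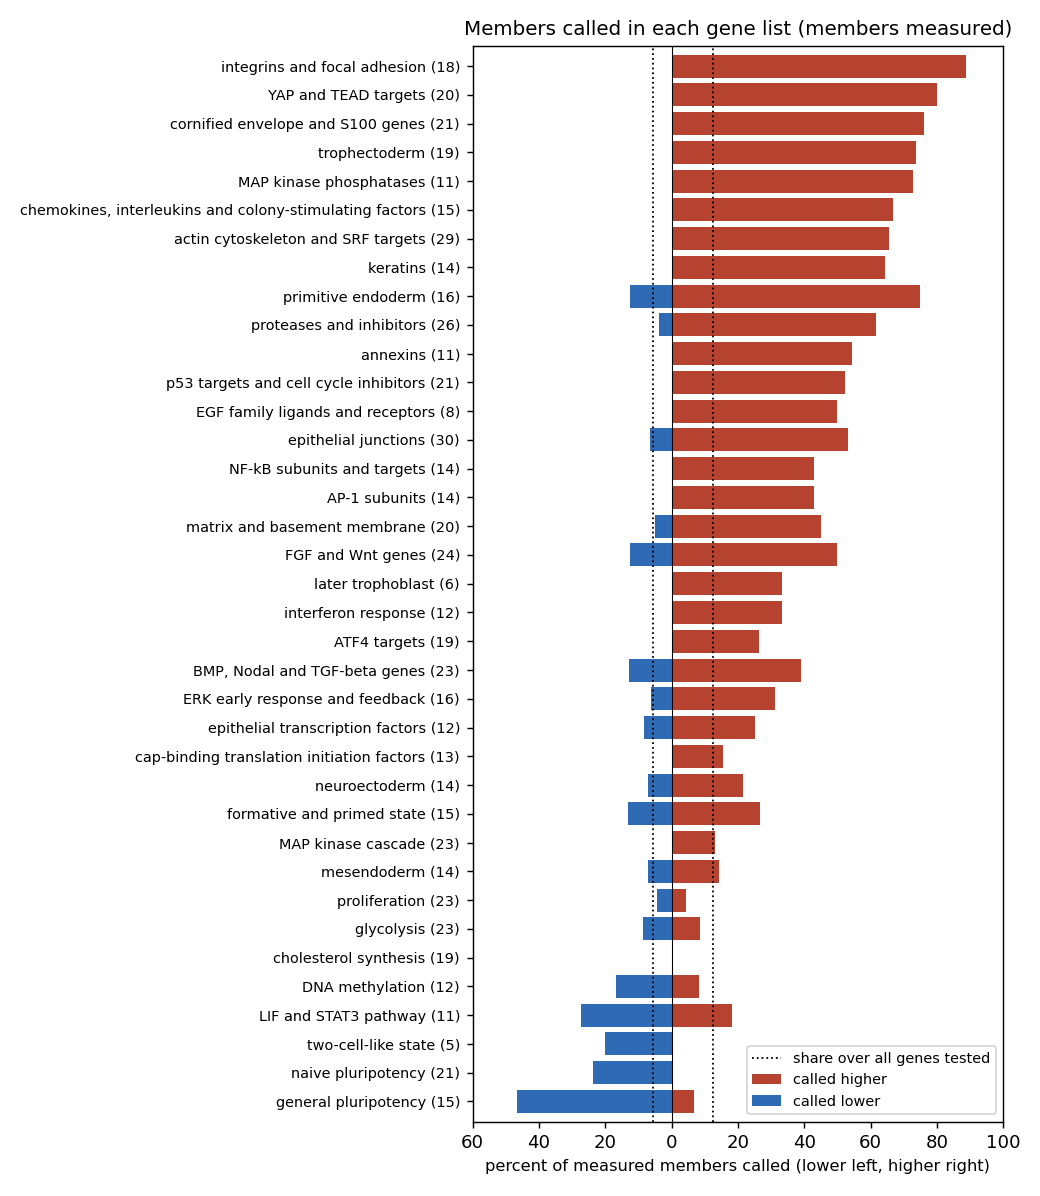
For each gene list, the percent of measured members called higher (red, right) and lower (blue, left), with the number measured in brackets. Dotted lines mark the shares over all genes tested, 12.4% higher and 5.67% lower. Lists of adhesion, YAP and TEAD targets, cornified envelope genes and trophectoderm are at the top, and the pluripotency lists at the foot.

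Keratins had 9 of 14 members higher, none lower and a median of 2.53. Krt18 and Krt8, partners in the filaments of simple epithelia, were both raised: Krt18 had levels of 8.37, 8.14 and 8.32 on the Map3k3 arrays and 3.52, 2.40 and 3.92 on the EGFP arrays. All Map3k3 arrays were above all EGFP arrays, a 32.0-fold rise (log2 difference 5.00, SE 0.47, adjusted p = 6.25e-06), and Krt8 rose 19.0-fold. Krt7 (48.4-fold, measured on 2 EGFP arrays), Krt20 (at least 22.4-fold) and Krt19 (8.49-fold) rose as well, and Krt7 on Map3k3 array 2, at 0.12, was well below the other Map3k3 arrays. Of the keratins that mark the epidermis, Krt14 rose 1.68-fold (not called without Map3k3 array 1, at log2 0.58) and Krt5 was not called (1.25). The probes of Krt10 disagreed, the brighter one at -0.33 without a call and another called higher, at 1.18 (adjusted p = 0.00118).

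The cornified envelope and S100 genes, most of them clustered in the epidermal differentiation complex, had 16 of 21 measured members higher and none lower, with a median of 2.70. After Crct1 and Dmkn the largest rises were those of Lce3c (at least 63.7-fold), Sprr1a (at least 45.3-fold) and Cnfn (28.1-fold). Sprr1a, a small proline-rich envelope protein, had levels of 1.12, 1.31 and 0.97 on the Map3k3 arrays and -4.58, -6.07 and -4.38 on the EGFP arrays. The EGFP arrays were all below background for Sprr1a and Lce3c. The late cornified envelope genes of the Lce3 group resemble each other closely, so a probe may read more than its named gene. The calcium-binding S100a4 rose 14.7-fold and S100a6 13.7-fold. Loricrin's gene Lor was raised 6.50-fold, measured on 1 EGFP array, and the transglutaminase Tgm3 was not called (0.00, and -1.78 at another probe with adjusted p = 0.0587).

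Epithelial junction genes had 16 of 30 members higher and 2 lower, with a median of 0.93. The desmosomal cadherin Dsc2 (at least 20.2-fold), the claudin genes Cldn3 (12.3-fold) and Cldn6 (10.6-fold), desmoplakin's gene Dsp (11.1-fold) and Ocln (10.4-fold, measured on 1 EGFP array), for occludin, rose most. Levels of Cldn6, a tight junction gene, were 3.44, 3.09 and 3.20 on the Map3k3 arrays and -0.33, -0.63 and 0.47 on the EGFP arrays, with no overlap. Cdh1, for E-cadherin, rose 1.80-fold and Epcam was not called (0.70, adjusted p = 0.0881, or 0.0233 with the replicate number as a block, which gives a call). The lower genes were Gjb5 (at least 4.50-fold) and Tjp3 (1.61-fold, but not called without Map3k3 array 2 or EGFP array 3, at log2 -0.48 and -0.59). Gjb5 was also among the genes that differed most between the controls, and against the uninduced Map3k3 cells its log2 difference was -1.09. Of 12 transcription factors of epithelia 3 rose, Foxq1 (at least 5.84-fold) and Klf6 (4.63-fold) among them, Grhl3 (1.59-fold, but not called without Map3k3 array 1, at log2 -0.57) fell, and Trp63, Grhl2, Ovol1 and Elf3 were not called. With the replicate block Elf3 was called higher, at 0.71 (adjusted p = 0.0278).

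Annexins had 6 of 11 members higher and none lower. Next to Anxa1, Anxa3 (58.5-fold, measured on 2 EGFP arrays), Anxa2 (8.57-fold), Anxa8 (7.14-fold) and Anxa5 (6.74-fold) rose, while Anxa6 and Anxa7 differed by 0.01 and 0.28. Anxa2 was abundant in both groups, with levels of 8.08, 8.17 and 7.93 on the Map3k3 arrays and 5.02, 4.97 and 4.90 on the EGFP arrays.

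Trophectoderm genes, which mark the outer layer of the blastocyst, had 14 of 19 measured members higher, none lower and a median of 3.86. Cdx2, the homeobox factor that specifies this layer, had levels of 0.43, 1.57 and 0.48 on the Map3k3 arrays and -6.13, -6.38 and -6.66 on the EGFP arrays. The EGFP arrays were all at background, and the rise was at least 41.7-fold (SE 0.25, adjusted p = 1.37e-09). Gata3, which acts beside Cdx2, had levels of 1.28, 0.87 and 0.81 on the Map3k3 arrays and -5.35, -4.67 and -4.61 on the EGFP arrays. Its EGFP arrays were also at background, a rise of at least 41.1-fold (adjusted p = 6.14e-09).

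Hand1, Krt7 and Plet1 completed the 5 largest rises of the list, Plet1 at 43.9-fold with levels of 3.53, 3.10 and 3.30 on the Map3k3 arrays and -1.95, -2.95 and -1.54 on the EGFP arrays. The placental homeobox genes Esx1 and Rhox6 rose 37.9-fold and 28.4-fold, and Rhox6 and its neighbour Rhox9 are similar enough that their probes may not tell them apart. Eomes, needed for trophoblast stem cells, rose 2.28-fold, and Tead4, which acts upstream of Cdx2, 1.82-fold. Not called were Tfap2c (0.38), Tfap2a (0.07), Gata2 (0.71), Dlx3 and Cdh3, and Elf5 did not pass the filter. With the replicate block Gata2 and Cdh3 were called higher, at 0.71 and 0.68 (adjusted p = 0.00892 and 0.00876). Of the 6 measured genes of later trophoblast, Mmp9 (at least 5.82-fold) and Peg10 (3.56-fold) rose, and the placental hormone genes Prl3d1 and Prl3b1 were not called. Of the 6, 1 had passed the filter through the Map3k3 cells with Dox alone, which favours a rise. This gene is among the 2 called higher. Of the 14 listed, 7 did not pass the filter and 1 had no named probe.

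Primitive endoderm genes had 12 of 16 members higher and 2 lower, with a median of 1.60, or 0.88 with bounded genes at their bound. The basement membrane collagens Col4a2 (16.4-fold) and Col4a1 (10.1-fold) rose most, followed by the transcription factors Gata6 (at least 6.88-fold) and Foxa2 (at least 5.46-fold) and the laminin chain Lamb1 (3.70-fold). Gata6, which specifies this layer, had levels of -1.34, -1.70 and -1.63 on the Map3k3 arrays and -5.84, -4.88 and -4.31 on the EGFP arrays, with the EGFP arrays at background. Sox17 rose at least 3.38-fold and Gata4 1.65-fold. Lama1, the laminin chain typical of this tissue, fell, with levels of 4.47, 5.12 and 4.69 on the Map3k3 arrays and 5.99, 6.47 and 6.12 on the EGFP arrays, and Sox7 fell 1.89-fold. Pdgfra and Ttr did not pass the filter.

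**Figure D4:**
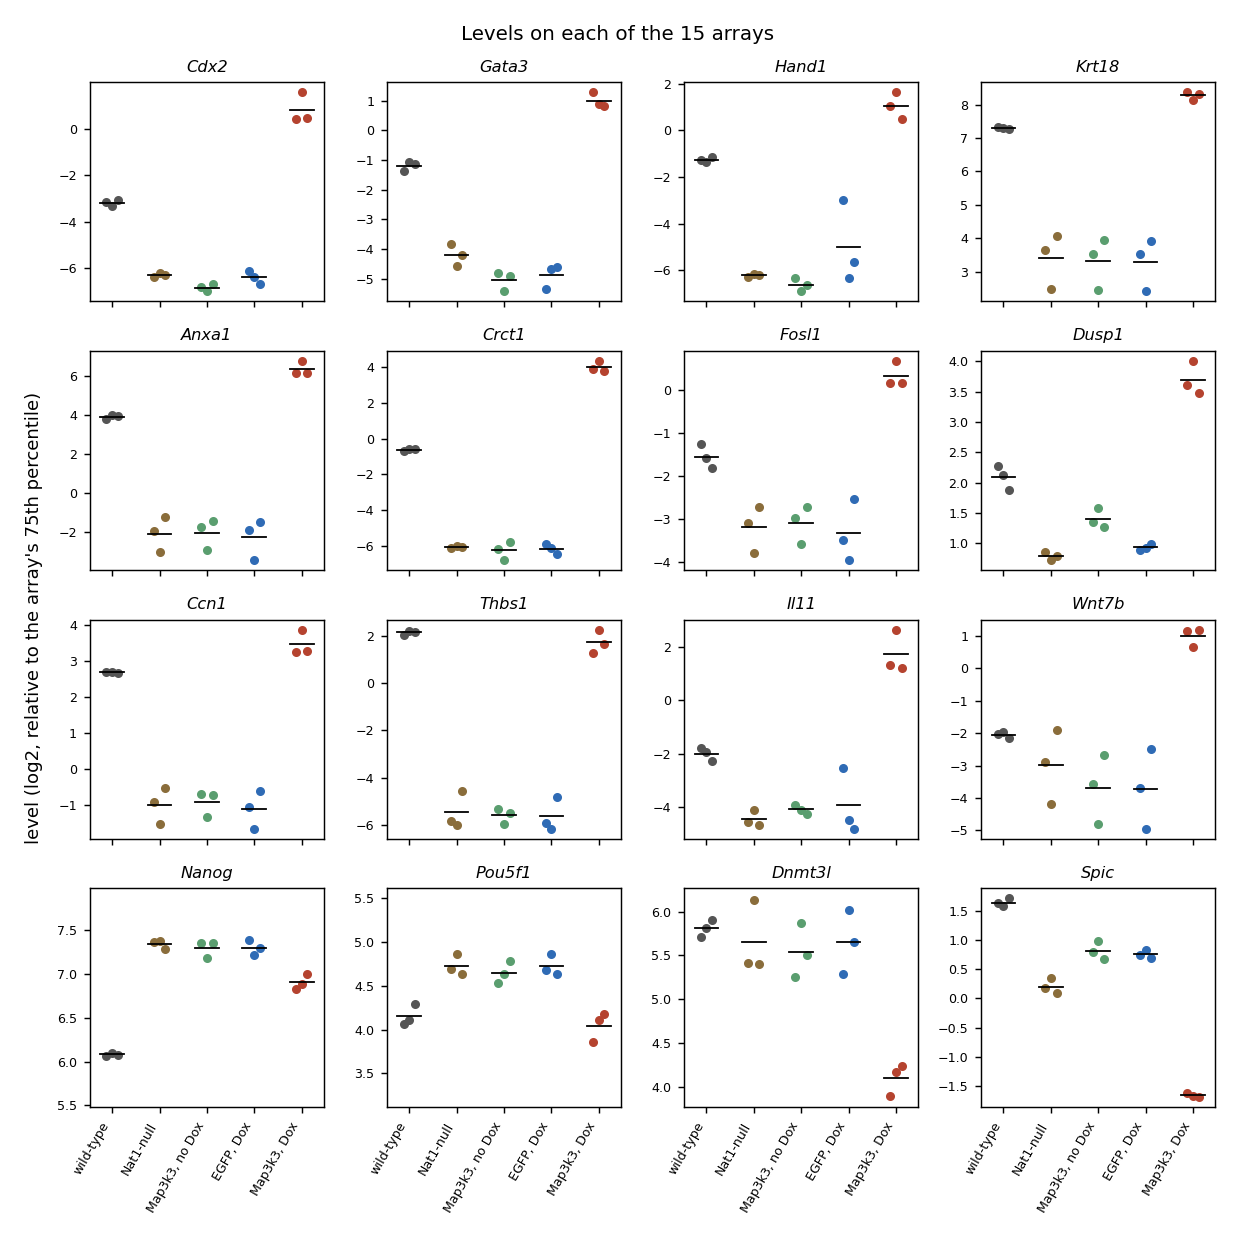
Levels of 16 genes (log2, relative to the array's 75th percentile) on each of the 15 arrays, with a black bar at the mean of each group of 3. Cdx2, Gata3, Hand1, Krt18, Anxa1, Crct1, Fosl1, Dusp1, Ccn1, Thbs1, Il11 and Wnt7b are higher with Map3k3 than with EGFP, and Pou5f1, Dnmt3l and Spic lower, while Nanog was not called. The Nat1-null cells and both control groups lie close together in most panels.

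Genes that fell did so by less. The 15 with the largest falls were led by Pga5, a pepsinogen gene, with levels of -3.68, -5.26 and -5.27 on the Map3k3 arrays and -1.49, -1.87 and -1.65 on the EGFP arrays. Map3k3 array 1 was above the other Map3k3 arrays and below every EGFP array, and the fall was 8.39-fold, measured on 1 Map3k3 array (log2 difference -3.07, SE 0.34, adjusted p = 2.33e-05). Zmat4, a zinc finger gene, had levels of -1.58, -1.29 and -1.44 on the Map3k3 arrays and 1.23, 1.53 and 0.83 on the EGFP arrays. It was measured on all 6 arrays, with no overlap, and fell 6.19-fold (log2 difference -2.63, SE 0.21, adjusted p = 1.95e-06).

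Spic, an ETS factor known in macrophages and in stem cells, had levels of -1.61, -1.66 and -1.69 on the Map3k3 arrays and 0.74, 0.83 and 0.69 on the EGFP arrays. The arrays of each group lay within a narrow range, and the fall was 5.32-fold (log2 difference -2.41, SE 0.09, adjusted p = 2.07e-09). Mitf, the factor that governs melanocytes and lysosome genes, had levels of 0.66, 0.50 and 0.53 on the Map3k3 arrays and 2.79, 2.91 and 2.67 on the EGFP arrays. It fell 4.69-fold, again with no overlap. Cga, which encodes the common alpha chain of the glycoprotein hormones, fell 5.12-fold, measured on 2 Map3k3 arrays.

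Further genes of the 15 were Adgrd1 (7.05-fold, measured on 1 Map3k3 array), Fcgr2b (5.91-fold, measured on 1 Map3k3 array), Cd2 (5.80-fold, measured on 2 Map3k3 arrays), Spink1 (5.75-fold), Acss1 (5.01-fold), Scgb3a1 (4.95-fold), Ephx2 (4.82-fold), Atp6v0a4 (4.69-fold) and A2m (at least 4.62-fold). They include a mitochondrial acetyl-CoA synthetase (Acss1), an epoxide hydrolase (Ephx2) and a subunit of the proton pump (Atp6v0a4). Cd2 has another passing probe that differed by 0.05 and was not called, so its fall rests on the brighter probe. Spink1 varied within each group, with levels of -3.40, -1.75 and -2.76 on the Map3k3 arrays and -1.02, 0.87 and -0.19 on the EGFP arrays, and array 2 was the highest in both groups. The kallikrein genes Klk1, Klk1b5 and Klk1b26 fell 3.92-fold, 4.00-fold and 3.82-fold, but these genes are nearly identical and their probes may read each other's RNA. They were added after their values were seen.

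Naive pluripotency genes had 5 of 21 members lower and none higher, and their median was -0.44. Fbxo15, an F-box gene specific to stem cells, had levels of 3.72, 3.76 and 3.60 on the Map3k3 arrays and 5.12, 5.18 and 5.14 on the EGFP arrays, a 2.75-fold fall with no overlap. Tcl1 (2.24-fold), Tdh (1.93-fold), Esrrb (1.55-fold) and Socs3 (1.55-fold, but not called without Map3k3 array 3, EGFP array 1 or EGFP array 2, at log2 -0.55, -0.56 and -0.54) also fell. Nanog had levels of 6.83, 6.89 and 7.00 on the Map3k3 arrays and 7.38, 7.22 and 7.30 on the EGFP arrays. All 3 Map3k3 arrays were below all EGFP arrays, but the difference was under the fold minimum (log2 difference -0.39, SE 0.07, adjusted p = 8.18e-04), and another Nanog probe differed by 0.03. The same holds for Klf4 (-0.44), Zfp42 (-0.52) and Stat3 (-0.50). Tfcp2l1, Klf2 and Klf5 differed by -0.43, -0.21 and -0.08, with overlap in Tfcp2l1. Other, dimmer probes of Stat3 and Tfcp2l1 were called lower, at -0.92 and -0.60. In 15 of the 21 genes the Map3k3 arrays were all below the EGFP arrays, which was so for 29.1% of all genes.

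General pluripotency genes had 7 of 15 members lower and 1 higher, with a median of -0.55. Pou5f1, which encodes OCT4, had levels of 3.86, 4.11 and 4.17 on the Map3k3 arrays and 4.68, 4.86 and 4.63 on the EGFP arrays. The groups did not overlap, a 1.60-fold fall (log2 difference -0.68, SE 0.11, adjusted p = 4e-04). Pou5f1 lay close to the fold minimum and was not called without Map3k3 array 1, at log2 -0.58. Dnmt3l, the cofactor of the de novo DNA methyltransferases, had levels of 3.89, 4.17 and 4.23 on the Map3k3 arrays and 5.28, 6.02 and 5.65 on the EGFP arrays and fell 2.94-fold. The RNA-binding Lin28a (2.01-fold), Fgf4 (1.74-fold), Zscan10 (1.73-fold) and Tet1 (1.68-fold) also fell and Dppa2 rose 1.53-fold (not called without Map3k3 array 2 or EGFP array 1, at log2 0.52 and 0.55, and at another probe, at 0.38). Sox2 differed by -0.55 (adjusted p = 8.33e-05), under the fold minimum, and was called without EGFP array 2, at -0.61. No pluripotency gene named here fell 4-fold, and all remained well above background on all 3 Map3k3 arrays.

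Among formative and primed genes, which rise as cells leave the naive state, 4 of 15 rose and 2 fell. Cdh2 (9.38-fold, measured on 2 EGFP arrays), for N-cadherin, Dnmt3a (4.09-fold), Fgf5 (at least 2.77-fold) and Pou3f1 (1.76-fold, but not called without Map3k3 array 2, EGFP array 1 or EGFP array 3, at log2 0.61, 0.68 and 0.73) rose, while Sox3 (2.13-fold) and Otx2 (1.90-fold) fell. Otx2 had levels of 3.43, 3.37 and 3.56 on the Map3k3 arrays and 4.46, 4.14 and 4.53 on the EGFP arrays. Dnmt3b was not called (0.52). Of 12 DNA methylation genes, Dnmt3a rose, Dnmt3l and Tet1 fell, and Dnmt1 and Uhrf1 were not called. In the LIF and STAT3 pathway the receptor gene Lifr fell 1.94-fold, Pim3 1.82-fold and Socs3 1.55-fold, and Jak2 rose 2.03-fold and Bcl6 1.76-fold. Of 5 measured genes of the state that resembles the 2-cell embryo, Zfp352 (1.91-fold, but not called without Map3k3 array 2, EGFP array 1 or EGFP array 3, at log2 -0.59, -0.82 and -0.83) fell, and Zscan4c and Zscan4f were not called.

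FGF and Wnt genes had 12 of 24 members higher and 3 lower. Wnt7b, a ligand, had levels of 1.14, 0.65 and 1.19 on the Map3k3 arrays and -3.69, -4.95 and -2.49 on the EGFP arrays. The EGFP arrays spread over more than 2 log2 units, all below the Map3k3 arrays, and the rise was 26.1-fold, measured on 1 EGFP array. Other ligands rose too, Wnt4 (38.6-fold, measured on 1 EGFP array), Wnt7a (at least 18.7-fold) and Wnt9a (12.4-fold, measured on 1 EGFP array), and so did the Wnt inhibitor Dkk1 (at least 22.2-fold). The feedback gene Axin2 rose 1.58-fold (not called without Map3k3 array 2 or EGFP array 3, at log2 0.54 and 0.53), while Lef1 differed by -0.91 without a call, or with one under the replicate block (adjusted p = 0.0257). Fgf15 (1.94-fold, but not called without Map3k3 array 1, Map3k3 array 2, EGFP array 1 or EGFP array 3, at log2 -0.97, -0.73, -0.85 and -0.73), Fgf4 (1.74-fold) and Fgf8 (1.56-fold, measured on 2 Map3k3 arrays, but not called without Map3k3 array 2 or EGFP array 2, at log2 -0.52 and -0.46) fell, and another Fgf8 probe differed by -0.25 without a call.

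BMP, Nodal and TGF-beta genes had 9 of 23 members higher and 3 lower. The receptor Tgfbr2 (8.09-fold), the ligands Tgfb3 (at least 6.68-fold), Bmp2 (6.62-fold, measured on 2 EGFP arrays) and Tgfb2 (3.40-fold), and the inhibitory Smad6 (4.31-fold) rose. Tgfbr2 levels were 2.04, 2.52 and 1.79 on the Map3k3 arrays and -0.98, -0.63 and -1.08 on the EGFP arrays, with no overlap. Id4 (2.09-fold) and the Nodal antagonists Lefty2 (1.86-fold) and Lefty1 (1.65-fold, but not called without Map3k3 array 2, at log2 -0.51) fell, and Nodal itself was not called (-0.49). Genes of mesendoderm and neuroectoderm were called at shares nearer to that of all genes, with 2 of 14 higher and 1 lower, and 3 of 14 higher and 1 lower. Sox11 (18.9-fold, measured on 2 EGFP arrays) had the largest rise among the neuroectoderm genes, followed by Nes (3.30-fold) and Nefl (1.88-fold), while Tubb3 (1.77-fold) fell and Pax6 and Sox1 were not called. Of the mesendoderm genes Foxf1 (at least 3.21-fold) rose, and the gene T (brachyury) was called but was below background in both groups. With the replicate block 3 mesendoderm and 2 neuroectoderm genes were lower.

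Targets of p53 and cell cycle inhibitors had 11 of 21 members higher, none lower and a median of 0.85. Gadd45g, a growth arrest and stress response gene, had levels of 3.90, 3.23 and 3.92 on the Map3k3 arrays and -1.63, -1.71 and -1.79 on the EGFP arrays. The groups were far apart, a 42.2-fold rise (log2 difference 5.40, SE 0.16, adjusted p = 4.52e-10). Plk2 (7.23-fold), Cdkn2b (7.01-fold), Perp (5.34-fold) and Pmaip1 (3.23-fold) followed, and Cdkn1a, which encodes p21, rose 2.02-fold at its brighter probe, while another differed by -0.11 without a call. Bax, Bbc3 and Btg2 were not called. Proliferation genes were nearly all uncalled, with Ccnd1, for cyclin D1, 2.12-fold higher and Mycn 2.27-fold lower among 23, and with the replicate block 2 were higher. Their median was -0.31, against -0.09 over all genes, and Mki67 and Top2a differed by -0.41 and -0.48, under the fold minimum. In 16 of the 23 proliferation genes the Map3k3 arrays were all below the EGFP arrays, which was so for 29.1% of all genes. In 1 they were all above, against 20.2% of all genes.

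The metabolic lists differed in their shares of called genes, which over all genes were 12.4% higher and 5.67% lower. Of glycolysis genes 8.7% were higher and 8.7% lower, and of ATF4 targets 26.3% were higher and 0% lower. Of 23 glycolysis genes Eno3 (1.83-fold) and Slc2a1 (1.68-fold) rose and Ldhb (1.91-fold) and Pfkp (1.84-fold) fell. None of 19 cholesterol synthesis genes was called by limma, 4 had an unadjusted p under 0.05, and their median was -0.02. Of 19 ATF4 targets 5 rose, Ddit4 (5.35-fold), Nupr1 (3.61-fold), Cebpb (3.43-fold), Vldlr (1.80-fold, but not called without Map3k3 array 1, Map3k3 array 3, EGFP array 1 or EGFP array 3, at log2 0.64, 0.85, 0.67 and 0.76) and Phgdh (1.58-fold, but not called without Map3k3 array 1 or EGFP array 1, at log2 0.56 and 0.56), while Atf4, Asns and Ddit3 were not called. Among 13 genes listed as cap-binding translation initiation factors, Eif4g3 (3.52-fold) rose and Eif4g1 differed by -0.14. Eif4e3 was called but was below background in both groups.

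Of 725 different genes on the lists, 621 were measured, of which 250 were called higher and 36 lower. Of the 250, 242 had passed the filter through a group outside the comparison. The remaining 8 had passed through the Map3k3 cells with Dox alone, which favours a rise. The 8 include 2 each of the primitive endoderm, cornified envelope and protease lists. They also include 1 each of the chemokine, later trophoblast and FGF and Wnt lists, and a gene can be on more than 1 list. The lists were chosen with earlier results of these data known, so these shares are a description and no evidence of direction.

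Genes were divided into 4 equal classes by their level in the uninduced Map3k3 cells, whose arrays are not among those compared. The uninduced arrays do enter the pooled spread and the filter. In the lowest class 24.9% of genes were called higher and 6.92% lower. These shares were 13.7% and 6.67% in the next class, 7.53% and 5.46% in the third, and 3.43% and 3.63% in the highest. Of the 528 genes with at least 4-fold rises, 402 lay in the lowest class and 9 in the highest. The filter bears on these shares, since a gene at background elsewhere could pass through the Map3k3 cells with Dox if it was high there. Of 14443 genes, 45 passed through that group alone, and 43 of them were called higher. Among the 14395 genes that passed through a group outside the comparison, a selection added after the data were seen, the shares called higher were 24.1%, 13.5%, 7.53% and 3.45% from the lowest to the highest class, and those called lower 7.09%, 6.59%, 5.45% and 3.61%.

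**Figure D5:**
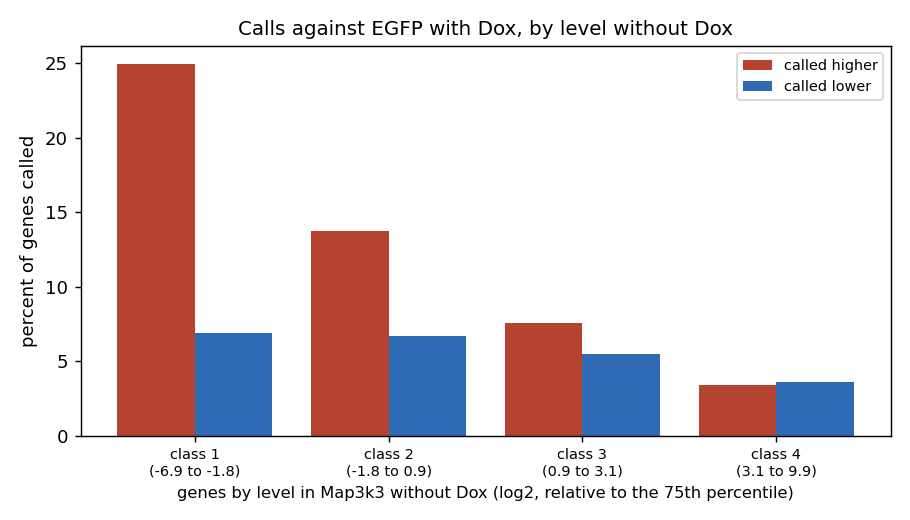
Percent of genes called higher (red) and lower (blue) with Map3k3 against EGFP in 4 equal classes of genes ordered by their level without Dox, about 3611 genes each, with the range of log2 levels in brackets. The share called higher falls from 24.9% in the lowest class to 3.43% in the highest, and the share called lower from 6.92% to 3.63%.

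The Nat1-null and wild-type arrays share none of the 6 arrays, and their difference can be set beside this comparison. Of the 1791 genes that rose with Map3k3, 1097 (61.3%) were called lower in Nat1-null than in wild-type cells, against 20.5% of all genes, and 124 (6.92%) higher. The 1097 genes are 37% of all genes called lower in the null cells. Of the 819 genes that fell, 302 (36.9%) were called higher in the null cells, against 17.3% of all genes, and 144 (17.6%) lower. Across the 14443 genes the log2 differences of the 2 comparisons had a Pearson r of -0.47, given as a description, since genes are not independent replicates. The wild-type means of Anxa1, Fhl2 and Ccn1 were 3.89, 2.22 and 2.69, each between its EGFP and its Map3k3 arrays. Cryab, a small heat shock protein, had levels of 7.59, 7.54 and 7.54 on the Map3k3 arrays and 2.69, 1.77 and 2.81 on the EGFP arrays, a 35.1-fold rise, and its wild-type mean of 2.54 lay within the range of the EGFP arrays.

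Markers of other cell types were looked at as a whole. The summed linear signal of 13 fibroblast markers, relative to the 75th percentile, was 16.5 to 52.2 on the Map3k3 arrays and 10.9 to 26.9 on the EGFP arrays. Of these 13, 7 were called higher, Col6a1 (at least 4.59-fold), Col1a1 (2.96-fold), Loxl1 (2.57-fold), Twist1 (2.38-fold, measured on 1 EGFP array) and Fbln2 (2.04-fold) among them, and Thy1 (2.57-fold) fell, while Col1a2 (called with the replicate block, at 0.70, adjusted p = 0.0377), Col3a1 and Dcn were not called and Lum and Postn did not pass the filter. The 7 measured keratinocyte markers summed to 14.4 to 18.1 against 10.3 to 13.7, with Itgb4 and Krt14 higher and Trp63 not called. Blood markers summed to 21.8 to 25.4 against 27.7 to 32.7, with Cd14 (3.93-fold, measured on 1 EGFP array) higher and Ptprc not passing the filter. Endothelial markers summed to 23.6 to 27.6 against 34.0 to 36.5, with Vwf (3.27-fold, but not called without Map3k3 array 2, EGFP array 1 or EGFP array 3, at log2 -0.94, -1.68 and -1.46) lower. The endothelial sum includes Pecam1, which is also on the naive pluripotency list. The part of other cells in the matrix, keratin and cornified envelope results was not tested. In RNA from whole cultures, more cells of a type and more RNA per cell cannot be told apart.

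All but 1 of the 6 arrays were on the same slide, EGFP array 3 being on the other, and Map3k3 array 1 and EGFP array 3 were in slide row 1 and the rest in row 2. Within row 1, with 1 array of each group and the spread of all groups assumed, 1093 genes were higher and 539 lower. Within row 2, 1670 were higher and 786 lower. Among the 606 other passing probes of called genes, 576 had the same sign as the probe used, 426 were called in the same direction and 1 in the opposite one.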

How the data were processed

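Per the file headers, the authors scanned single-colour Agilent arrays of total RNA and read them with Feature Extraction 11.5.1.1, and the deposited intensity is the processed green signal, already background-subtracted. Set against the authors' deposited log2 values, those computed here had a correlation of 1 on each of the 15 arrays. Here the intensity of each of 55681 non-control probes was averaged over its spots, turned into log2, and the array's 75th percentile was subtracted. No spot was saturated. Probes had to be well above background on every array of 1 or more of the 5 groups. Of 29782 such probes, 18931 had a symbol, matched from RefSeq accessions to GRCm38.p6, and the brightest stood for each of 14443 genes.

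Differences were fitted with limma 3.58.1 in R 4.3.3 (lmFit and eBayes, two-sided) over all 15 arrays with 1 mean per group and 10 residual degrees of freedom, and p-values were adjusted by Benjamini and Hochberg over all 14443 genes. The script recovered changes set in simulated data. These had independent noise of equal size in every group, with no replicate effect and no background floor, so those features of the arrays were not tested. The genes and lists were chosen with earlier results of these data known. The text names the 15 largest called differences each way whose arrays do not overlap, by measured fold or bound, passing over clone names, the 5 largest each way between the controls, and up to 5 called members each way of each list with its defining uncalled members. Genes outside these rules serve as further examples, and some genes that the rules name are not reported here.

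Equal replicate numbers were checked by correlating deviations from group means over all genes. The correlations were 0.107, 0.336 and 0.197, so the numbers may pair the samples, although Map3k3 array 1 correlated best with EGFP array 3. The main fit took no account of such pairs. The replicate block, given as an alternative, did. The labels give no shared batch. The mean signal column named for the normexp alternative was not in the files used, and the median signal took its place. The number of arrays limits the precision.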

Additional observations from a re-analysis of the deposited data

Results flagged for a closer look

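Of the 10851 probes that passed the filter and have no gene symbol here, 1438 (13.3%) were called between Map3k3 and EGFP with Dox, 376 higher and 1062 lower. They take no part in the gene results above. Between the EGFP cells with Dox and the Map3k3 cells without Dox, 0 of these probes were called by limma and 482 had an unadjusted p under 0.05. Falls made up 73.9% of the calls among probes without a symbol and 31.9% among probes with one. At least 4-fold rises and falls numbered 76 and 26, and the median log2 difference was -0.21. With quantile normalization 377 were higher and 1005 lower, with median scaling 360 and 1113, and with normexp background correction 204 and 438.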

How the results depend on the processing

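In 22 alternative settings the counts of 1791 genes higher and 819 lower stayed within 1.5 times, except as follows. Normexp background correction gave 507 lower, and keeping only probes well above background on all 15 arrays gave 1187 higher. Without a fold minimum 3393 were lower, and with a 2-fold minimum 278. Within slide row 1, which has 1 array a group, 1093 were higher and 539 lower. Among list members (250 higher, 36 lower) the lower count was 95 without a fold minimum and 11 at 2-fold. Leaving out 1 array gave 1675 to 1774 higher and 742 to 849 lower, and 238 to 252 and 33 to 41 list members. A fit of only the 6 arrays compared gave 1627 higher and 663 lower, and among named genes 13 lost a call and 1 gained one. With normexp 15 named genes lost a call, and Jund (0.62) gained a call. The 15 were Axin2, Cav2, Eif4e3, Esrrb, Fbln2, Fgf8, Gata4, Isg15, Krt14, Lif, Mafk, Mmp2, Nrg2, Oasl2 and Twist1. Between the controls 1 gene was called higher with normexp (2310065F04Rik), a slide row block (Fign) and array weights (Tfap2a), and 0 to 1 when 1 array was left out. A replicate block gave 1897 higher and 912 lower and no call between the controls, and among named genes it changed only the 6 calls given beside them (Gata2, Cdh3, Elf3, Epcam, Lef1 and Col1a2). Of 212 called genes named above, 132 were called in all settings that gave a value, and calls lost when 1 array was left out stand beside those genes. When the passing probes of a gene were averaged, Tgm3 (-0.89), Stat3 (-0.71) and Lama3 (1.78) gained a call and Cdkn1a (0.45), Dppa2 (0.50), Isg15 (0.32) and Fgf8 (-0.45) lost theirs. Leaving out 1 array gave a call to Vcl (0.59 to 0.69 without Map3k3 array 1 or 3 or EGFP array 2 or 3), Btg2, Cdh3 and Elf3 (-0.59, 0.87 and 1.21 without Map3k3 array 2), Col1a2 (1.00 without Map3k3 array 3), Irf1 and Jund (-0.80 and 0.71 without EGFP array 2), Bax, Dnmt3b, Epcam, Nuak2 and Zscan4c (-0.72, 0.65, 0.93, 0.80 and 1.21 without EGFP array 3) and Rarres2 (-3.28 and -3.27 without EGFP array 1 or 3). Low signal limits the bounds, most of all on Map3k3 array 2.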
